A study of Mus musculus with 6 samples.

Results

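Bone morphogenetic protein (BMP) signalling in the mouse liver was described through 10 genes, found by symbol among the 32285 features of the deposited tables. They were the ligand genes Gdf2 (which encodes BMP9), Bmp10, Bmp2 and Bmp6, the pathway's target genes Id1, Id2, Id3, Smad6 and Smad7, and Hamp, which encodes the iron hormone hepcidin. Single-nucleus RNA sequencing had been done on livers of 3 mice labelled as lacking Plvap in hepatic stellate cells (HSC-Plvap knockout) and of 3 littermate controls. All 6 mice were male, 18 weeks old, on chow diet and fasted for 12 hours overnight, and C57BL/6JBomTac was their labelled strain. The source label names the Plvap allele Plvaptm1.1Salm, the transgene Tg(Lrat-cre)1Rshw and a B6.126(Cg) background, and it stands on both groups. The sources used here do not say whether the controls carried the Cre. The Lrat-cre transgene acts in cells that use the Lrat promoter, which in liver are chiefly the stellate cells. Plvap encodes plasmalemma vesicle-associated protein, a component of the diaphragms of endothelial fenestrae and caveolae.

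BMPs are secreted dimers that bind type I and type II receptors on a target cell. The receptors phosphorylate the BMP-responsive SMADs, which enter the nucleus with SMAD4 and switch on target genes. BMP9 and BMP10 act with high affinity on the type I receptor ALK1 of endothelial cells. BMP2 and BMP6 made by liver endothelial cells act on hepatocytes, with hemojuvelin as co-receptor, and raise hepcidin, which blocks iron export by binding ferroportin. The Id proteins inhibit DNA binding by basic helix-loop-helix factors, and SMAD6 and SMAD7 are inhibitory SMADs that feed back on the pathway.

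Values are unique molecular identifiers (UMIs), each counting a captured RNA molecule, summed over the nuclei of a class in a library. A level is given as CPM, the UMIs of a gene per 1000000 UMIs of that class in that library. The 6 libraries held 23153182 to 27199466 UMIs, and 25662 nuclei were kept, with 4421, 4078 and 3954 in knockouts 1 to 3 and 5006, 4675 and 3528 in controls 1 to 3. Classes were named from marker genes, so a class name stands for nuclei with that marker pattern. They were hepatocytes (5241 nuclei), stellate cells (2775), endothelial cells with the sinusoidal genes Stab2, Clec4g and Oit3 (8808), vascular endothelial cells (492), macrophages (4691), T and NK cells (945), B cells (792) and cholangiocytes (536). A mesenchymal cluster of 554 nuclei led by Itgbl1, Lama2 and Svep1 was kept apart as unnamed, and 42.4% of its nuclei came from control 2. Another 283 nuclei with cholangiocyte markers, led by Dmbt1, came almost all from control 2 (96.5%) and entered no class. A cluster of 150 nuclei led by Vwf, Adamtsl1 and Gpm6a scored highest for vascular endothelial markers. It entered no class either, because its lead over the endothelial score was too small. Hepatocytes split by library: a cluster led by Ces3b, G0s2 and Angptl8 held 78.1% of those of knockout 2 and 77.8% of those of control 1, while most hepatocytes of the other 4 libraries lay in other clusters. A cluster led by Afm, Enpp2 and Prlr held 78.4% of those of knockout 1, which gave 92.3% of its nuclei. It was kept because hepatocyte clusters were exempt from the rule that left out clusters with over 90% of nuclei from 1 library. In all, 69 kept barcodes occurred in more than 1 library. In stellate nuclei Plvap stood at 233.1, 195.9 and 159.0 CPM in knockouts 1 to 3 and at 243.6, 228.0 and 243.8 CPM in controls 1 to 3. Its knockout libraries lay mostly below the controls without the loss of the transcript, and the sources used here do not name the exons that the deletion removes, so a 3' tag may lie outside them and check nothing.

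Positions are on the mm10 assembly in the GENCODE M21 annotation. Gdf2 is at chr14:33941039-33947198 and Bmp10 at chr6:87428994-87437677, both on the plus strand. Bmp2 is at chr2:133552159-133562885, upstream of Id1 at chr2:152736251-152737410 on the same strand. Bmp6 is at chr13:38345107-38500302 and overlaps Txndc5 and 4930579J19Rik on the other strand, so that its counts are uncertain if reads were not assigned by strand. Id2 is at chr12:25093799-25097140 on the minus strand, Id3 at chr4:136143497-136145755 on the plus strand and Smad6 at chr9:63953076-64022059 on the minus strand. Hamp is at chr7:30942368-30944032 on the minus strand, inside the opposite-strand gene Gm44662, with its copy Hamp2 at chr7:30922372-30924681.

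The promoters of 4 genes are printed here because they carry the regulatory letters of hepcidin and of the Id genes that differed between hepatocyte zones. Each is the 250 bases before the RefSeq start site (GRCm38.p6), 5' to 3' on the gene's strand, and 7 of the 10 members had a window in that table. The Id2, Id3 and Hamp2 windows lie inside the genes as GENCODE M21 places them, so the annotations differ on the start of these genes. Capitals mark GGCGCC, the core of the BMP-responsive element of hepcidin promoters, and TTCNNNGAA, the form of a STAT site. Hamp (chr7:30944030-30944279, minus strand), Hamp2 (chr7:30924182-30924431, minus strand), Id2 (chr12:25096093-25096342, minus strand) and Id3 (chr4:136143572-136143821, plus strand) read as follows.
Hamp: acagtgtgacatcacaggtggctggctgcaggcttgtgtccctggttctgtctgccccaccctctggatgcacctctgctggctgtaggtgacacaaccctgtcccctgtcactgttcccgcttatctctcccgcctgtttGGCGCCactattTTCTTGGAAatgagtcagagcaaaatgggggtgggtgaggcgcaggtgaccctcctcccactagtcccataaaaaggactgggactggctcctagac
Hamp2: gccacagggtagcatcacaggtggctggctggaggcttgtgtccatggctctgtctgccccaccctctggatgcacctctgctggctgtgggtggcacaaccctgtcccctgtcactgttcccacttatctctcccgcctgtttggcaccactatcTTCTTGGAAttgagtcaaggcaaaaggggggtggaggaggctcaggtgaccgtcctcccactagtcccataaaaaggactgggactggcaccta
Id2: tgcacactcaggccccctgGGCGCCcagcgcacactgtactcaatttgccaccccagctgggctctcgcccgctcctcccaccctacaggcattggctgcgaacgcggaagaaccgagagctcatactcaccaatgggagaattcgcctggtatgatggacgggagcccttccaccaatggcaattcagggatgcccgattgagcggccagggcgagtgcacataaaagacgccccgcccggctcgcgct
Id3: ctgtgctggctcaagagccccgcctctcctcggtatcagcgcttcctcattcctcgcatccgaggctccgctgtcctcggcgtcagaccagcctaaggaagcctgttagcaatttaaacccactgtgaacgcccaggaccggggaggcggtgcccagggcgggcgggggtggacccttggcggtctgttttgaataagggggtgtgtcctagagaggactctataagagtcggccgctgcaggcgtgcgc
Hamp held GGCGCC beginning 109 bases before its start and TTCNNNGAA beginning 97 bases before it, with no overlap. Hamp2 kept TTCNNNGAA at 94 bases but read GGCACC where Hamp reads GGCGCC, a G4A substitution counted from the first base of the motif with the Hamp base first. The windows of Hamp and Hamp2, compared over more than the 250 bases printed, had 276 of 297 aligned bases identical (92.9%), and the longest transcripts shared 388 of 410 aligned bases (94.6%), so reads could be split between the copies. Hamp2 had 57 UMIs in all libraries together, against 8514 for Hamp. Id2 held GGCGCC beginning 231 bases before its start. Smad6 held GTCTAGAC, a SMAD-type palindrome, beginning 4 bases before its start and so running across it. Over 32851 promoter windows of 250 bases before to 50 after a start, 11.9% held GGCGCC, 8.30% TTCNNNGAA and 0.213% GTCTAGAC. All 3 motifs read the same on both strands, and a match is a description of letters only.

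Gdf2 and Bmp10 were highest in stellate nuclei, and Bmp2 and Bmp6 were highest in endothelial nuclei. Gdf2 averaged 105.1 ± 8.55 CPM in stellate nuclei and 2.52 ± 0.843 CPM in endothelial nuclei (SD, n = 6 libraries). Bmp10 averaged 70.6 ± 7.78 CPM in stellate nuclei and 0.453 ± 0.345 CPM in endothelial nuclei (SD, n = 6). Bmp2 averaged 588.0 ± 82.2 CPM in endothelial nuclei and 37.3 ± 5.15 CPM in stellate nuclei (SD, n = 6). These 2 classes did not overlap for any of the ligand genes, and each mouse showed the same direction. The within-mouse difference of log2(CPM + 1) between stellate and endothelial nuclei was 4.95 ± 0.31 for Gdf2 and 5.65 ± 0.34 for Bmp10. Between endothelial and stellate nuclei it was 3.94 ± 0.14 for Bmp2 and 8.03 ± 0.39 for Bmp6. For each of the 4 comparisons the two-sided exact permutation test over 6 mice gave p = 0.031, the smallest it can give, and it remains 0.031 after Benjamini-Hochberg adjustment over the 4. Nuclei of any class can carry free RNA of another, and the endothelial level of Gdf2 and the stellate level of Bmp6 were near or below the levels of those genes in the immune classes.

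**Figure D1:**
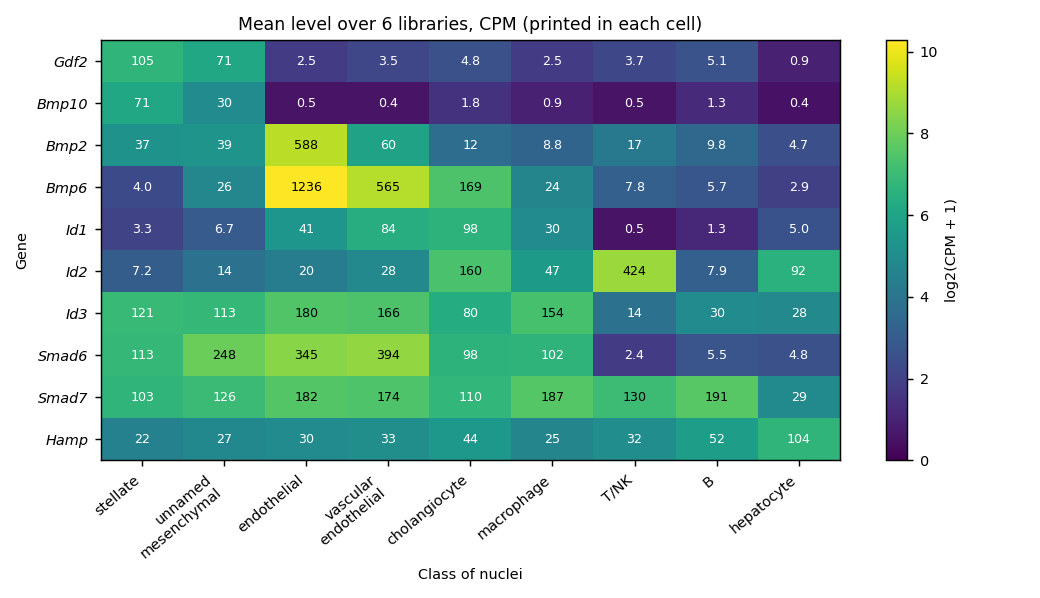
Level of each of the 10 genes in 9 classes of nuclei, as log2(CPM + 1) of the mean over 6 libraries. Gdf2 and Bmp10 are highest in stellate nuclei, Bmp2 and Bmp6 in endothelial nuclei, Id2 in T and NK nuclei and Hamp in hepatocytes.

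Gdf2, whose product circulates as an ALK1 ligand, came second in the unnamed mesenchymal cluster at 71.4 ± 30.6 CPM (SD, n = 6), below the stellate level in 5 of 6 libraries. Bmp10 followed the same order, with 29.6 ± 17.4 CPM in that cluster, below the stellate level in 6 of 6 libraries. Every other class averaged 5.12 CPM or less for Gdf2 and 1.81 CPM or less for Bmp10. Neighbours in that order were not separated, except that hepatocytes lay below endothelial nuclei for Gdf2 in 6 of 6 libraries. Stellate nuclei contributed 10.1% of all UMIs of kept nuclei but 76.9% ± 10.5 of Gdf2 UMIs and 87.0% ± 7.17 of Bmp10 UMIs (SD, n = 6). A Gdf2 UMI was found in 35.4%, 36.5% and 32.7% of stellate nuclei in knockouts 1 to 3 and in 32.2%, 46.2% and 40.1% in controls 1 to 3. A Bmp10 UMI was found in 28.1%, 27.0% and 23.1% of them in the knockouts and in 25.2%, 33.1% and 30.9% in the controls. In endothelial nuclei, which are shallower, 0.588% to 1.46% held a Gdf2 UMI, and whether these UMIs are background was not tested.

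Bmp2 and Bmp6, the ligands that drive hepcidin, came next in vascular endothelial nuclei. There Bmp2 averaged 60.0 ± 27.2 CPM and Bmp6 565.3 ± 228.2 CPM (SD, n = 6), below the endothelial level in 6 of 6 libraries. Bmp6 was also read in cholangiocytes at 168.9 ± 46.3 CPM, above the unnamed mesenchymal cluster (26.2 ± 37.8 CPM) in 6 of 6 libraries. That cluster and macrophages (24.2 ± 6.93 CPM) overlapped. Hepatocytes, the cells that answer these ligands, averaged 4.72 ± 1.39 CPM of Bmp2 and 2.86 ± 1.24 CPM of Bmp6. Endothelial nuclei contributed 23.2% of all UMIs but 93.0% ± 0.768 of Bmp2 and 93.7% ± 1.82 of Bmp6 UMIs (SD, n = 6).

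The pairs were also looked at nucleus by nucleus, with each nucleus thinned to 1500 UMIs so that depth does not couple the genes. Among stellate nuclei with a Gdf2 UMI, a Bmp10 UMI was more frequent by 1.39 ± 3.82 percentage points than among those without (SD, n = 6), with 4 of 6 libraries in that direction and an exact permutation p of 0.375. Among endothelial nuclei with a Bmp2 UMI, a Bmp6 UMI was more frequent by 2.27 ± 1.27 points, in 6 of 6 libraries, with an exact permutation p of 0.031. That endothelial difference was -0.21 ± 2.77 points when nuclei were thinned to 1000 UMIs (exact permutation p = 0.875) and 8.74 ± 1.44 points with no thinning (6 of 6 libraries, exact permutation p = 0.031), so its size and sign differed between the settings. Each thinning was a single random draw, and the part of the draw in these differences was not tested.

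Genes with the most similar pattern over the 54 class-by-library points were sought among those above 10 CPM in the class where the ligand is highest. For Gdf2 they were Dcn (decorin; Pearson r = 0.914), Daam2 (0.913) and Mark1 (0.912). For Bmp10 they were Myl3, Gm32283 and 4930480K15Rik, each at r = 0.939. For Bmp2 they were Adam23 (0.931), Syne1 (0.922) and Hecw2 (0.916), and for Bmp6 Stox2 (0.931), Afap1l1 (0.921) and Tspan18 (0.910). Hamp had lower likeness, with Azgp1 at 0.719, Acaa1b at 0.718 and Rbp4 at 0.713. The points share libraries and classes, so these values are a description without a test.

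None of the 4 ligand genes passed the test between knockout and control in the class that carries it. The test was edgeR's quasi-likelihood test on UMI sums per library over all genes of a class, with Benjamini-Hochberg adjustment and a threshold of 0.05. Gdf2 in stellate nuclei stood at 99.8, 107.0 and 98.0 CPM in the knockouts and at 98.0, 120.2 and 107.2 CPM in the controls. The groups overlapped, with a log2 fold change of -0.14 (SE 0.12, edgeR adjusted p = 0.9995). Bmp10 stood at 71.8, 63.5 and 63.8 CPM in the knockouts and at 64.9, 78.4 and 81.1 CPM in the controls, again overlapping, with a log2 fold change of -0.22 (SE 0.14, edgeR adjusted p = 0.9995). The 95% interval of the log2 fold change ran from -0.38 to 0.09 for Gdf2 and from -0.50 to 0.06 for Bmp10. In the unnamed mesenchymal cluster the log2 fold changes were -0.59 (SE 0.35) for Gdf2 and -0.83 (SE 0.47) for Bmp10. Groups overlapped there for both genes, and neither passed (edgeR adjusted p = 0.9996 for each). Markers of other cells moved with genotype in these stellate sums: the 10 hepatocyte markers summed to 880.0 to 1633 CPM in the knockouts against 580.8 to 751.2 CPM in the controls, and the 10 portal mesenchymal markers to 167.0 to 243.4 CPM against 100.4 to 149.4 CPM. The 10 stellate markers themselves summed to 22954 to 23908 CPM in the knockouts and 24588 to 26440.0 CPM in the controls. The part of these lists in the result was not tested.

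Endothelial Bmp2 stood at 641.9, 569.2 and 629.5 CPM in the knockouts and at 435.0, 590.9 and 661.7 CPM in the controls. Its lowest value was control 1 and the groups overlapped (log2 fold change 0.07, SE 0.16, edgeR adjusted p = 0.9986). Endothelial Bmp6 stood at 853.5, 1227 and 1502 CPM in the knockouts and at 1167, 1200.2 and 1465 CPM in the controls. Knockout 1 was lowest and knockout 3 highest, so the knockouts spanned the controls (log2 fold change -0.15, SE 0.20, edgeR adjusted p = 0.9986). In vascular endothelial nuclei the log2 fold changes were -0.14 (SE 0.42) for Bmp2 and -0.04 (SE 0.40) for Bmp6.

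**Figure D2:**
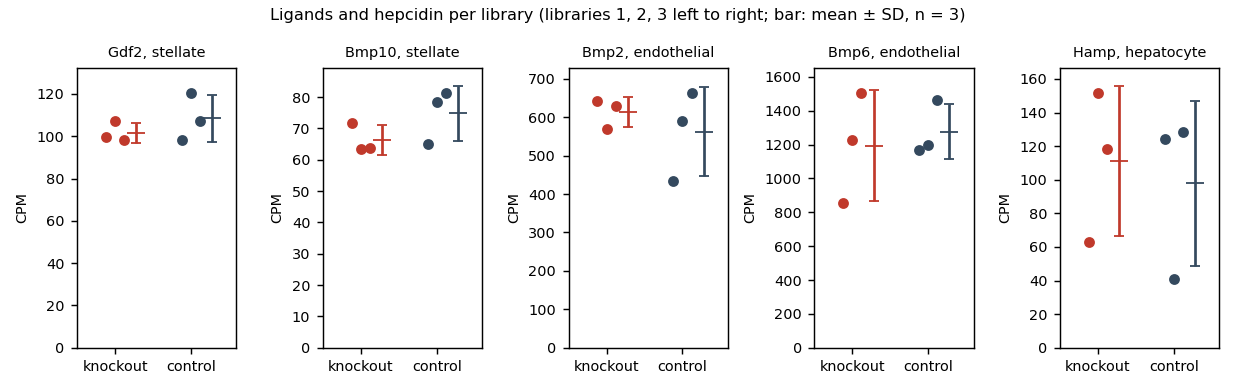
CPM of the 4 ligand genes and Hamp in the class that carries each, with 1 point per library, knockouts left of controls, and a bar for the mean ± SD (n = 3). The knockout and control points overlap in all 5 panels.

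Bmp6 stood higher in the knockouts in 2 classes that are not its main source. In cholangiocytes it was 196.3, 233.7 and 195.8 CPM in the knockouts and 115.6, 139.2 and 132.5 CPM in the controls. The groups did not overlap, but the difference missed the threshold (log2 fold change 0.67, SE 0.20, edgeR adjusted p = 0.697). In macrophages it was 33.3, 25.0 and 31.1 CPM in the knockouts and 17.6, 21.9 and 16.4 CPM in the controls. That gap missed the threshold too (log2 fold change 0.65, SE 0.18, edgeR adjusted p = 0.9998), and the 10 endothelial markers summed to 655.3 to 712.9 CPM in knockout macrophages and 612.9 to 717.2 CPM in control macrophages. In macrophages 4 other marker lists did not overlap between the groups. Hepatocyte markers summed to 983.3 to 1349 CPM in the knockouts and 626.4 to 800.1 CPM in the controls. Plasmacytoid dendritic cell markers summed to 359.0 to 416.2 CPM in the knockouts and 418.3 to 511.5 CPM in the controls, neutrophil markers to 143.3 to 161.9 CPM in the knockouts and 170.0 to 188.4 CPM in the controls and mesothelial markers to 0.243 to 0.314 CPM in the knockouts and 0.461 to 0.863 CPM in the controls, and the part of these lists in the result was not tested. Bmp2 in the unnamed mesenchymal cluster stood at 47.6, 41.8 and 39.0 CPM in the knockouts and 37.7, 35.7 and 29.5 CPM in the controls, without overlap (log2 fold change 0.26, SE 0.31, edgeR adjusted p = 0.9996). In that cluster hepatocyte markers summed to 1042 to 1819 CPM in the knockouts and 731.9 to 1024 CPM in the controls, mesothelial markers to 291.4 to 393.3 CPM in the knockouts and 182.2 to 209.6 CPM in the controls and vascular endothelial markers to 5.60 to 9.83 CPM in the knockouts and 11.1 to 35.4 CPM in the controls, none overlapping, and their part in the result was not tested.

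The target genes had a wider spread over the classes than the ligands. Id1 was highest in cholangiocytes (97.8 ± 47.5 CPM) and vascular endothelial nuclei (83.9 ± 30.6 CPM), whose order differed between libraries (SD, n = 6). Endothelial nuclei (41.1 ± 11.2 CPM) and macrophages (29.6 ± 14.3 CPM) followed, and every other class averaged 6.73 CPM or less. Id2 was highest in T and NK nuclei at 424.0 ± 25.2 CPM, above all other classes in 6 of 6 libraries, and this gene is required for innate lymphoid and NK cells. That class was a mix for Id2, with pooled levels of 574.1 CPM in a cluster of 596 nuclei led by Cd226, 357.2 CPM in one of 135 nuclei led by Ncr1, and 39.0 CPM in one of 214 nuclei led by Lef1, which lay below cholangiocytes. Cholangiocytes (160.0 ± 38.7 CPM) and hepatocytes (92.5 ± 51.4 CPM) came next for Id2. Id3 did not separate its upper classes: endothelial (180.2 ± 18.5 CPM), vascular endothelial (166.1 ± 56.5 CPM), macrophage (153.9 ± 43.5 CPM) and stellate nuclei (121.4 ± 31.2 CPM) overlapped. Hepatocytes had 27.9 ± 28.8 CPM of Id3, with an SD as large as the mean. The 150 nuclei led by Vwf that entered no class had a pooled Id3 level of 361.4 CPM, above every other cluster.

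Among the classes, Smad6 was highest in the endothelial ones. It averaged 394.3 ± 95.2 CPM in vascular endothelial nuclei, 344.5 ± 108.4 CPM in endothelial nuclei, 247.8 ± 108.7 CPM in the unnamed mesenchymal cluster and 112.8 ± 31.6 CPM in stellate nuclei (SD, n = 6). The endothelial classes overlapped, and both the endothelial level against the mesenchymal cluster and that cluster against stellate nuclei held in 6 of 6 libraries. Macrophages (102.2 ± 22.7 CPM) and cholangiocytes (98.0 ± 36.0 CPM) overlapped stellate nuclei for Smad6. The 150 nuclei led by Vwf that entered no class had a pooled Smad6 level of 670.1 CPM, above every other cluster. Hepatocytes, T and NK nuclei and B cells had 4.79, 2.44 and 5.53 CPM of Smad6. Smad7 was more even, from 191.3 ± 64.2 CPM in B cells, 187.3 ± 23.3 CPM in macrophages and 182.3 ± 35.6 CPM in endothelial nuclei down to 103.4 ± 18.6 CPM in stellate nuclei. Hepatocytes were lowest for Smad7 at 28.9 ± 19.1 CPM, below stellate nuclei in 6 of 6 libraries.

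Over the 9 classes, 61 of 90 gene-by-class pairs had enough UMIs to be tested between knockout and control. By edgeR, 0 of the 61 passed, 7 had an unadjusted p under 0.05 (11.5%, against 3.85% of 79659 gene-by-class pairs), and DESeq2 called 0. The groups did not overlap in 6 of the 61 (9.84%). That share lay within the range over all genes of the classes. In hepatocytes 8 members were tested and 0 were called, against 0.0% of 13784 genes, and 0 did not overlap, against 7.5% of genes. In stellate nuclei 0 of 9 were called, against 0.0523% of 11477 genes, and 0 did not overlap, against 11.0%. In endothelial nuclei 0 of 9 were called, against 0.0% of 12994 genes, and 0 did not overlap, against 9.87%. Outside these 3 large classes the counts were as follows. In vascular endothelial nuclei 0 of 7 were called, against 0.0% of 5320 genes, and 1 did not overlap, against 8.97%. In macrophages 0 of 8 were called, against 0.0% of 12205 genes, and 1 did not overlap, against 8.88%. In cholangiocytes 0 of 7 were called, against 0.0% of 6664 genes, and 3 did not overlap, against 8.42%. The smallest classes had the fewest tested members. In T and NK nuclei 0 of 3 were called, against 0.0155% of 6445 genes, and 0 did not overlap, against 9.6%. In B cells 0 of 3 were called, against 0.0411% of 4861 genes, and 0 did not overlap, against 9.13%. In the unnamed mesenchymal cluster 0 of 7 were called, against 0.102% of 5909 genes, and 1 did not overlap, against 9.65%.

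The members closest to the threshold were Id1 and Id3 in cholangiocytes, the lining cells of bile ducts. Id1 stood at 43.1, 55.8 and 89.0 CPM in the knockouts and at 95.4, 134.3 and 169.3 CPM in the controls. All 3 knockouts lay below all 3 controls, with a log2 fold change of -1.14 (SE 0.27, edgeR adjusted p = 0.207). Id3 stood at 40.7, 53.1 and 67.6 CPM in the knockouts and at 141.7, 86.8 and 92.0 CPM in the controls. Again the groups did not overlap (log2 fold change -1.02, SE 0.28, edgeR adjusted p = 0.440). These sums are small: Id1 had 18, 21 and 25 UMIs in 101, 91 and 68 knockout nuclei, and 33, 82 and 46 UMIs in 86, 135 and 55 control nuclei. The class leaves out the 283 nuclei with cholangiocyte markers led by Dmbt1, and 96.5% of them came from the control at 134.3 CPM of Id1. In that library they held 25.8 CPM of Id1 and 10.6 CPM of Id3, below every knockout value. Whether the Id1 and Id3 gaps remain with these nuclei added was not tested, so both gaps are stated for the class without them. The Id1 call depends on the setting. Its edgeR adjusted p was 0.0425 with no filter on low counts, 0.00883 without control 1 and 0.0210 without knockout 3. Under 14 alternatives the adjusted p lay between 0.00883 and 0.9998, and DESeq2 did not call the gene. Id2, Smad6 and Smad7 in cholangiocytes had log2 fold changes of -0.33 (SE 0.23), -0.44 (SE 0.28) and -0.28 (SE 0.24), with overlapping groups. Beside these values, the cholangiocyte markers themselves summed to 14096 to 15893 CPM in the knockouts and 12736 to 16165 CPM in the controls. Hepatocyte markers in cholangiocyte nuclei summed to 2147 to 2848 CPM in the knockouts and 1789 to 1882 CPM in the controls, B-cell markers to 13.3 to 192.2 CPM in the knockouts and 3.28 to 8.67 CPM in the controls, and plasmacytoid dendritic cell markers to 388.0 to 402.2 CPM in the knockouts and 292.0 to 379.1 CPM in the controls. The part of these lists in the result was not tested.

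In endothelial nuclei, the cells that BMP9 and BMP10 address, Id1 stood at 34.4, 36.1 and 32.4 CPM in the knockouts and at 54.4, 56.7 and 32.8 CPM in the controls. Control 3 lay within the range of the knockouts while controls 1 and 2 lay above them, and the difference did not pass (log2 fold change -0.53, SE 0.18, edgeR adjusted p = 0.9986). Endothelial Id3 stood at 172.8, 196.3 and 199.4 CPM in the knockouts and at 179.4, 184.7 and 148.5 CPM in the controls, and the groups overlapped (log2 fold change 0.10, SE 0.11). Endothelial Smad6 stood at 253.9, 417.7 and 264.1 CPM in the knockouts and at 522.4, 348.4 and 260.7 CPM in the controls. Control 1 was highest, the other libraries overlapped, and the log2 fold change was -0.32 (SE 0.27). Endothelial Smad7 and Id2 had log2 fold changes of -0.29 (SE 0.14) and 0.36 (SE 0.24), with overlapping groups. Hepatocyte markers in endothelial nuclei summed to 1104 to 1766 CPM in the knockouts and 790.8 to 1057 CPM in the controls and T and NK markers to 5.77 to 8.20 CPM in the knockouts and 8.23 to 11.4 CPM in the controls, and their part in these values was not tested.

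In vascular endothelial nuclei Smad7 stood at 152.1, 102.7 and 146.1 CPM in the knockouts and at 195.3, 220.4 and 230.2 CPM in the controls. Those groups did not overlap, and the difference missed the threshold (log2 fold change -0.70, SE 0.23, edgeR adjusted p = 0.996). Portal mesenchymal markers in these nuclei summed to 294.9 to 663.1 CPM in the knockouts and 571.0 to 1152 CPM in the controls. Vascular endothelial markers summed to 2652 to 3036 CPM in the knockouts and 2386 to 2649.6 CPM in the controls and neutrophil markers to 3.90 to 78.7 CPM in the knockouts and 0 to 2.62 CPM in the controls, both without overlap, and the part of these lists in the result was not tested. Id1, Id3 and Smad6 overlapped between the groups there, with log2 fold changes of -0.56 (SE 0.34), 0.04 (SE 0.32) and -0.18 (SE 0.24).

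In stellate nuclei, where the deletion is placed, Smad7 stood at 87.5, 79.05 and 104.6 CPM in the knockouts and at 101.5, 120.2 and 127.7 CPM in the controls. Knockout 3 lay above control 1, and the difference did not pass (log2 fold change -0.42, SE 0.14, edgeR adjusted p = 0.9995). Stellate Id3, Smad6 and Id2 overlapped between the groups, with log2 fold changes of -0.22 (SE 0.25), -0.25 (SE 0.24) and 0.01 (SE 0.30). The 5 macrophage target genes had log2 fold changes between -0.09 and 0.33, all with overlapping groups. In T and NK nuclei Id2 stood at 395.5, 399.4 and 440.6 CPM in the knockouts and at 462.3, 420.3 and 426.0 CPM in the controls. The groups overlapped, with a log2 fold change of -0.10 (SE 0.14). Smad7 had log2 fold changes of -0.39 (SE 0.21) in T and NK nuclei and -0.30 (SE 0.27) in B cells, where Id3 had 0.69 (SE 0.53). The unnamed mesenchymal cluster gave -0.04 (SE 0.29) for Id3, 0.30 (SE 0.43) for Smad6 and -0.13 (SE 0.31) for Smad7.

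**Figure D3:**
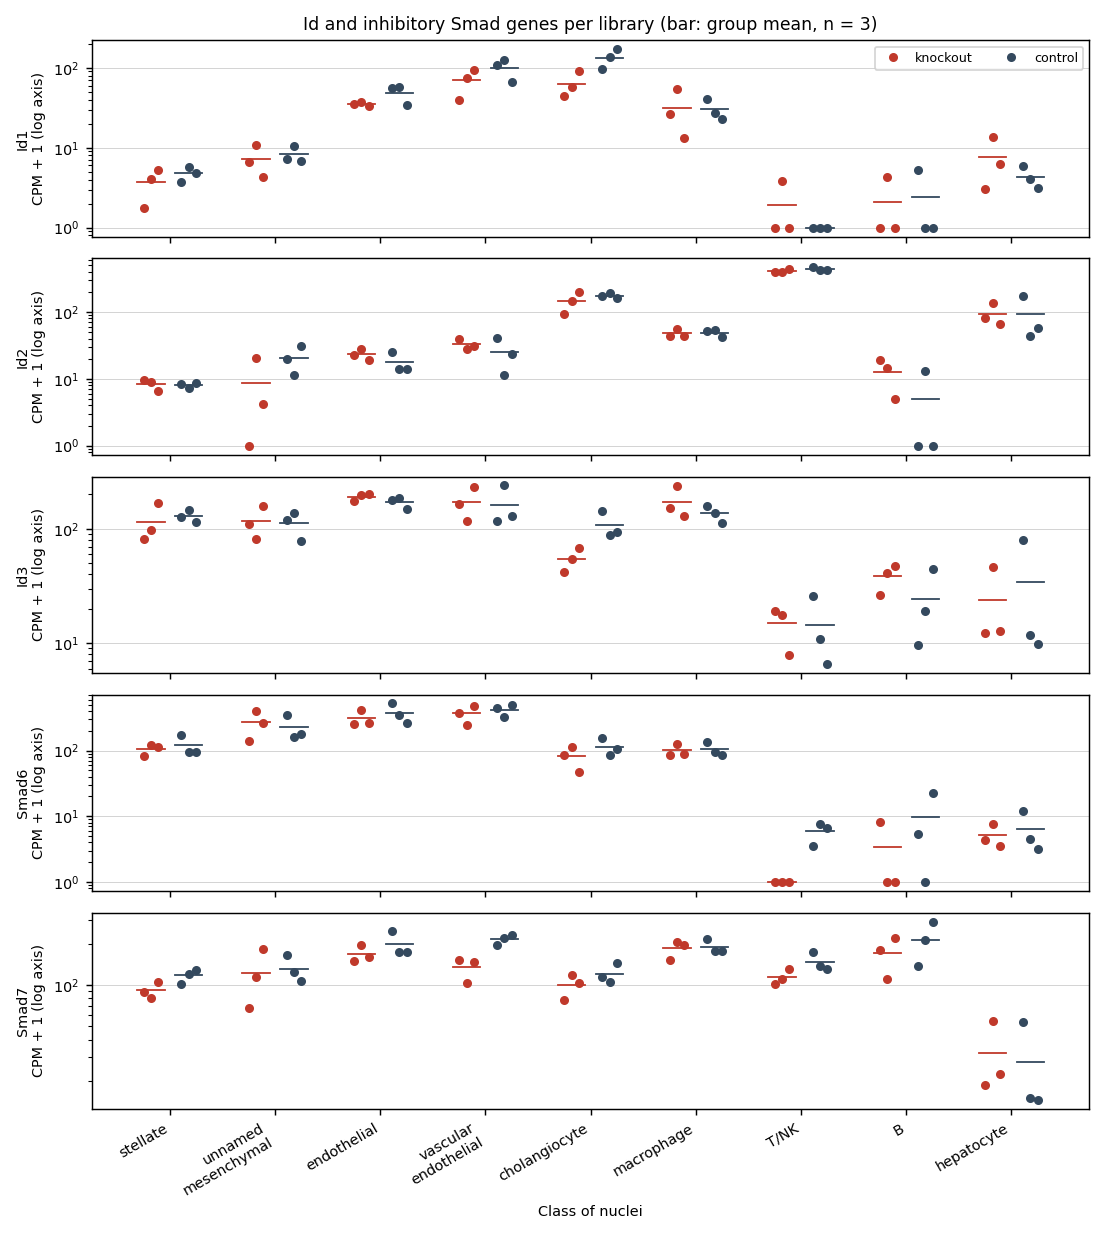
CPM + 1 (log axis) of Id1, Id2, Id3, Smad6 and Smad7 in 9 classes of nuclei, with 1 point per library, knockouts left of controls, and a bar for the group mean (n = 3). All knockout points lie below all control points for Id1 and Id3 in cholangiocytes and for Smad7 in vascular endothelial nuclei, and for Smad6 in T and NK nuclei, which had too few UMIs to be tested.

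No hepatocyte target gene passed the test, and libraries of 1 group lay far apart. Id2 stood at 78.95, 135.1 and 66.0 CPM in the knockouts and at 174.9, 42.6 and 57.2 CPM in the controls. Id3 stood at 11.3, 45.0 and 11.8 CPM in the knockouts and at 79.5, 10.9 and 8.91 CPM in the controls. Smad7 stood at 17.7, 54.0 and 21.6 CPM in the knockouts and at 52.4, 13.9 and 13.5 CPM in the controls. For Id2, Id3, Smad6 and Smad7 the highest values were those of control 1 and knockout 2, the libraries whose hepatocytes lay mostly in the cluster led by Ces3b. The same held for 28.6% of 13784 hepatocyte genes. The log2 fold changes were 0.95 (SE 0.60) for Id1, 0.01 (SE 0.49) for Id2, -0.54 (SE 0.87) for Id3, -0.42 (SE 0.59) for Smad6 and 0.21 (SE 0.58) for Smad7. Without control 1 and knockout 2 they were 0.41, 0.44, 0.16, 0.01 and 0.44 in the same order of genes, and the lowest edgeR adjusted p was 0.922. The pattern was not particular to hepatocytes. Control 1 and knockout 2 were also highest for 4 of 5 tested target genes in macrophages, against 12.4% of 12205 genes. In endothelial nuclei this held for 3 of 5, against 16.6% of 12994 genes, and in each other class for 0 or 1 of the tested target genes.

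Hamp, the hepatocyte gene that the endothelial ligands act on, varied more among libraries of 1 group than between the groups. It stood at 63.0, 151.3 and 118.3 CPM in the knockouts and at 124.4, 41.0 and 128.2 CPM in the controls, with 528, 1515 and 909 UMIs behind the knockout values and 1349, 336 and 1554 behind the control values. Each group held a low library, knockout 1 and control 2, and the groups overlapped. The log2 fold change was 0.11 (SE 0.47, edgeR adjusted p = 0.9999), with a 95% interval from -0.81 to 1.03, and its sign changed when control 2 or knockout 2 was left out (-0.26 and -0.13). The share of hepatocytes with a Hamp UMI was 26.0%, 23.9% and 32.7% in the knockouts and 18.7%, 19.9% and 44.3% in the controls. The share of endothelial nuclei, which should lack the gene, was 9.04%, 4.37% and 11.4% in the knockouts and 6.40%, 8.23% and 17.7% in the controls. Their median depths differ, at 9185 to 11746 UMIs per hepatocyte and 3172 to 3979 UMIs per endothelial nucleus over the libraries. With every nucleus thinned to 1500 UMIs, the hepatocyte share was 5.66%, 10.9% and 9.20% in the knockouts and 7.54%, 4.71% and 10.4% in the controls. The thinned endothelial share was 4.15%, 1.78% and 6.94% in the knockouts and 3.14%, 4.01% and 8.65% in the controls. The thinned hepatocyte share lay above the endothelial share in each of the 6 libraries.

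Outside hepatocytes, Hamp averaged 52.3 ± 17.3 CPM in B cells, 44.1 ± 35.9 CPM in cholangiocytes, 30.03 ± 13.9 CPM in endothelial and 21.9 ± 12.2 CPM in stellate nuclei, against 104.4 ± 42.7 CPM in hepatocytes (SD, n = 6). Hepatocytes lay above B cells in 5 of 6 libraries, neighbours in the order of the other classes overlapped, and hepatocytes contributed 68.8% ± 16.1 of all Hamp UMIs. The endothelial level of Hamp was a median 36.6% of the hepatocyte level in the same library. For other hepatocyte genes that percentage was 25.6 for Ttr (transthyretin), 24.9 for Serpina1c, 11.8 for Alb (albumin) and 0.800 for Cps1, a urea cycle enzyme gene.

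Whether the knockout effect differed between classes was tested in a fit over hepatocyte, stellate and endothelial sums with mouse as a block. For stellate minus endothelial nuclei 0 of 10 members passed by edgeR and 0 had an unadjusted p under 0.05, against 0.0126% of 15822 genes past the threshold. For hepatocyte minus endothelial nuclei 0 of 10 passed and 1 had an unadjusted p under 0.05, against 0.00632% of 15822 genes past the threshold. That member was Id1, with a fitted difference of 1.26 on the log2 scale (SE 0.49, edgeR adjusted p = 1). Over the sums of all kept nuclei, the members' log2 fold changes lay between -0.27 (Id1) and 0.29 (Bmp2), none past the threshold.

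**Figure D4:**
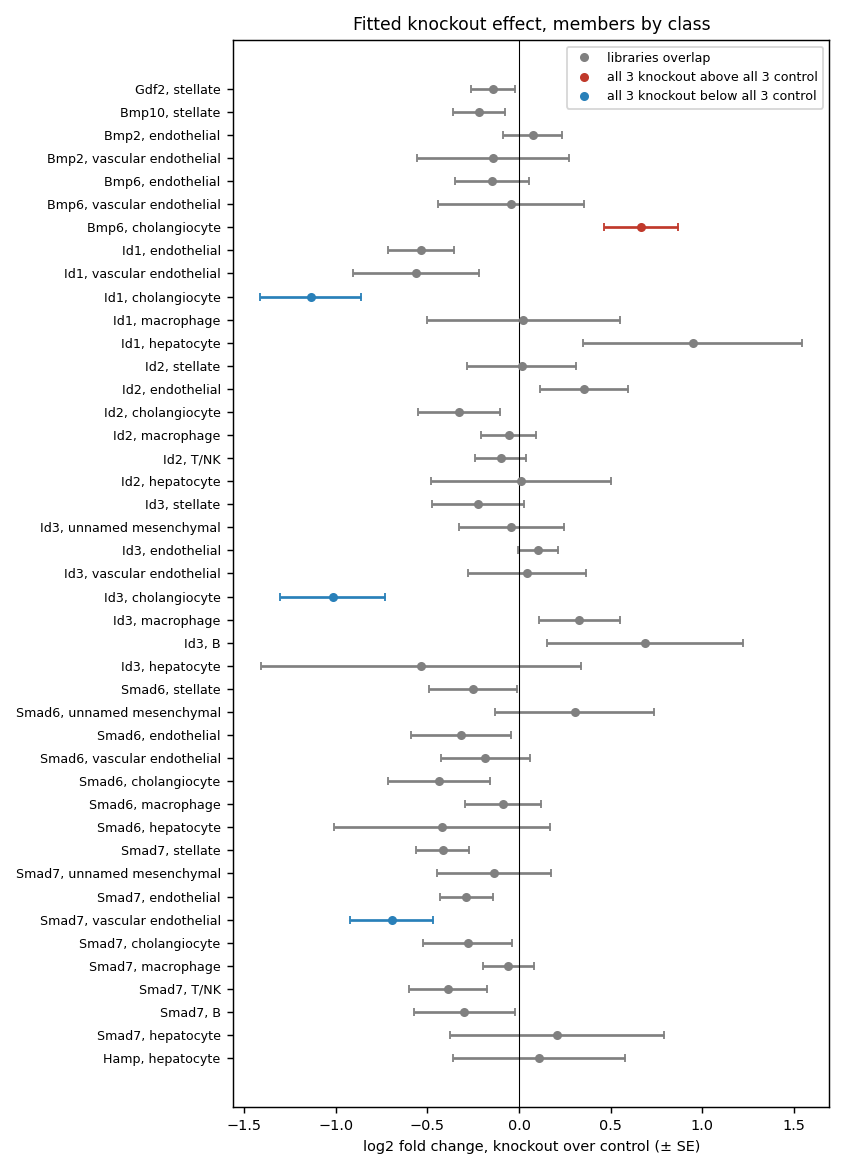
Fitted log2 fold change of knockout over control with its SE (bars), from edgeR fits over 6 libraries, for the target genes in each class where they were tested, Gdf2 and Bmp10 in stellate nuclei, Bmp2 and Bmp6 in endothelial and vascular endothelial nuclei, Bmp6 also in cholangiocytes, and Hamp in hepatocytes. Blue points mark gene and class pairs whose 3 knockouts all lay below the 3 controls, among them Id1 (-1.14) and Id3 (-1.02) in cholangiocytes, and the red point marks Bmp6 in cholangiocytes (0.67), whose knockouts all lay above. No adjusted p was under 0.05.

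Position along the liver lobule was compared within each mouse. Blood flows from the portal tract to the central vein, and hepatocytes, endothelial and stellate cells differ along that path. Nuclei of each class and library were ranked by a score of landmark genes, none of them a member, and the pericentral tertile was compared with the periportal tertile by edgeR with mouse as a block. Tertiles are ranges of a score and not cell types. Nuclei within 0.1 SD of the score from a tertile's boundary were counted on both sides of it, so they include nuclei outside the tertile. In hepatocytes these were 703 at the pericentral and 1282 at the periportal boundary, beside tertiles of 1749 and 1745 nuclei. In endothelial nuclei they were 739 and 704, beside tertiles of 2938 and 2934. In stellate nuclei they were 221 and 240, beside tertiles of 927 and 922. By this test 4 members passed in endothelial nuclei (against 14.0% of 10499 genes), 3 in hepatocytes (against 24.8% of 11485 genes) and 2 in stellate nuclei (against 13.6% of 8092 genes). Not all members had enough UMIs to be tested. Gdf2 and Bmp10 were untested in endothelial nuclei, Gdf2, Bmp10 and Bmp6 in hepatocytes, and Bmp6, Id1 and Id2 in stellate nuclei.

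Both endothelial ligand genes were higher in the pericentral than in the periportal tertile. Bmp2 averaged 614.6 ± 92.1 CPM in pericentral and 519.0 ± 77.7 CPM in periportal nuclei (SD, n = 6), higher in 6 of 6 mice (log2 fold change 0.25, SE 0.04, edgeR adjusted p = 5.45e-06). Bmp6 averaged 1360.2 ± 270.0 CPM in pericentral and 1105 ± 236.8 CPM in periportal nuclei (SD, n = 6), higher in 5 of 6 mice (log2 fold change 0.32, SE 0.06, edgeR adjusted p = 2.83e-04). These genes kept their direction and call under all 8 alternatives tried for them. The middle tertile averaged 629.05 CPM of Bmp2, above the pericentral mean, and 1235.9 CPM of Bmp6, between the other means. Endothelial Smad6 and Id1 were lower in the pericentral tertile. Smad6 averaged 324.2 ± 88.6 CPM in pericentral and 372.2 ± 118.7 CPM in periportal nuclei (SD, n = 6), lower in 6 of 6 mice (log2 fold change -0.18, SE 0.05, edgeR adjusted p = 0.00615), and its adjusted p was 0.0727 when the score was split into 2 equal parts. Id1 averaged 37.2 ± 9.39 CPM in pericentral and 46.5 ± 13.2 CPM in periportal nuclei (SD, n = 6), lower in 5 of 6 mice (log2 fold change -0.31, SE 0.11, edgeR adjusted p = 0.0432), a call that was lost in 5 of the 6 fits that left out 1 mouse (edgeR adjusted p of 0.0516 to 0.207 without any 1 mouse other than control 3). Id2, Id3 and Smad7 did not pass, with log2 fold changes of 0.02 (SE 0.15), 0.11 (SE 0.06) and -0.11 (SE 0.06). In endothelial nuclei the vascular endothelial markers summed to 12.8 to 32.3 CPM in the pericentral and 66.0 to 164.2 CPM in the periportal tertile and the stellate markers to 415.0 to 879.9 CPM in the pericentral and 721.7 to 1242 CPM in the periportal tertile, lower in 6 of 6 mice for both lists. Adgrg6 of the vascular endothelial list is itself a periportal landmark, so that sum was partly set by the score. The hepatocyte markers summed to 733.8 to 1689.6 CPM in the pericentral and 871.2 to 1767 CPM in the periportal tertile, again lower in 6 of 6 mice. The endothelial markers themselves summed to 17957 to 21543 CPM in the pericentral and 16473 to 20232 CPM in the periportal tertile. Their sum was higher in 5 of 6 mice, with 3 markers past the threshold as higher and 2 as lower. The part of these lists in the results was not tested.

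In hepatocytes the Id genes differed in direction between zones. Id2 averaged 68.9 ± 36.6 CPM in pericentral and 102.1 ± 56.1 CPM in periportal hepatocytes (SD, n = 6), lower in 6 of 6 mice (log2 fold change -0.61, SE 0.08, edgeR adjusted p = 1.28e-05). Id3 averaged 38.0 ± 37.7 CPM in pericentral and 24.7 ± 26.4 CPM in periportal hepatocytes (SD, n = 6), higher in 6 of 6 mice (log2 fold change 0.63, SE 0.12, edgeR adjusted p = 6.11e-04). Control 1 and knockout 2 carried most of the Id3 level in both zones, and the direction was the same in the other mice. Smad6, whose main level is in endothelial and mesenchymal nuclei, averaged 8.66 ± 6.22 CPM in pericentral and 3.47 ± 2.45 CPM in periportal hepatocytes (SD, n = 6), higher in 6 of 6 mice (log2 fold change 1.28, SE 0.23, edgeR adjusted p = 3.00e-04). The middle tertile of hepatocytes averaged 21.6 CPM of Id3 and 2.42 CPM of Smad6, below the periportal means. It averaged 105.1 CPM of Id2, above the periportal mean. Markers of other cells moved the same way as Id3 and Smad6 in hepatocytes. The 10 endothelial markers summed to 82.9 to 184.5 CPM in the pericentral and 61.8 to 101.4 CPM in the periportal tertile, higher in 6 of 6 mice, with 4 of the 7 tested past the threshold. The 10 stellate markers summed to 28.5 to 72.7 CPM in the pericentral and 22.4 to 37.7 CPM in the periportal tertile, also higher in 6 of 6 mice. The T and NK markers summed to 27.4 to 57.2 CPM in the pericentral and 4.68 to 12.4 CPM in the periportal tertile, higher in 6 of 6 mice as well. Other lists moved the same way as Id2. The 9 cholangiocyte markers summed to 109.0 to 151.9 CPM in the pericentral and 138.8 to 208.4 CPM in the periportal tertile, lower in 6 of 6 mice, with 2 of the 5 tested past the threshold. Plasmacytoid dendritic cell markers (175.1 to 235.1 CPM in the pericentral and 188.5 to 281.6 CPM in the periportal tertile) and the hepatocyte markers (8932 to 20998 CPM in the pericentral and 12647 to 26279 CPM in the periportal tertile) were also lower in 6 of 6 mice. Sox9 of the cholangiocyte list is itself a periportal landmark and Cyp2e1 of the hepatocyte list a pericentral one, so those sums were partly set by the score. The part of all these lists in the Id2, Id3 and Smad6 results was not tested. Of the promoters printed above, that of Id2 holds GGCGCC and that of Id3 holds none of the searched motifs.

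Hamp averaged 132.0 ± 68.8 CPM in pericentral and 85.4 ± 39.3 CPM in periportal hepatocytes (SD, n = 6), higher in 4 of 6 mice, and did not pass (log2 fold change 0.53, SE 0.28, edgeR adjusted p = 0.268). The pericentral value was the lower one in knockout 2 and control 2. Hepatocyte Id1 and Smad7 did not pass either, with log2 fold changes of 0.36 (SE 0.23) and 0.15 (SE 0.11).

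Stellate ligand genes showed no zone difference that passed. Gdf2 averaged 111.2 ± 10.1 CPM in pericentral and 101.9 ± 7.51 CPM in periportal nuclei (SD, n = 6; log2 fold change 0.08, SE 0.11, edgeR adjusted p = 0.754). Bmp10 averaged 70.0 ± 8.24 CPM in pericentral and 71.8 ± 11.4 CPM in periportal nuclei (SD, n = 6; log2 fold change -0.06, SE 0.13, edgeR adjusted p = 0.873). Among stellate target genes Smad6 and Id3 were higher in the pericentral tertile. Smad6 averaged 140.2 ± 42.9 CPM in pericentral and 95.3 ± 31.1 CPM in periportal nuclei (SD, n = 6), higher in 6 of 6 mice (log2 fold change 0.52, SE 0.11, edgeR adjusted p = 1.62e-04). Id3 averaged 138.3 ± 43.2 CPM in pericentral and 108.2 ± 33.2 CPM in periportal nuclei (SD, n = 6), higher in 6 of 6 mice (log2 fold change 0.30, SE 0.10, edgeR adjusted p = 0.0382). The Id3 call was lost in 5 of the 6 fits that left out 1 mouse (edgeR adjusted p of 0.0507 to 0.136 without any 1 mouse other than control 1), and the adjusted p was 0.465 when the unnamed mesenchymal cluster was added to the stellate nuclei. Stellate Smad7 did not pass (log2 fold change 0.18, SE 0.11). Macrophage markers in stellate nuclei summed to 91.8 to 126.8 CPM in the pericentral and 59.2 to 113.3 CPM in the periportal tertile, higher in 6 of 6 mice. Markers of cholangiocytes, plasmacytoid dendritic cells, T and NK cells and mesothelial cells were also higher there in 6 of 6 mice, with cholangiocyte markers at 656.4 to 848.4 CPM in the pericentral and 573.2 to 716.6 CPM in the periportal tertile. Vascular endothelial markers, from the class highest for Smad6, went the other way, at 10.8 to 17.3 CPM in the pericentral and 25.9 to 71.3 CPM in the periportal tertile, lower in 6 of 6 mice, and so did the stellate markers, at 20734 to 26201 CPM in the pericentral and 23305 to 26731 CPM in the periportal tertile. The part of these lists in the results was not tested.

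**Figure D5:**
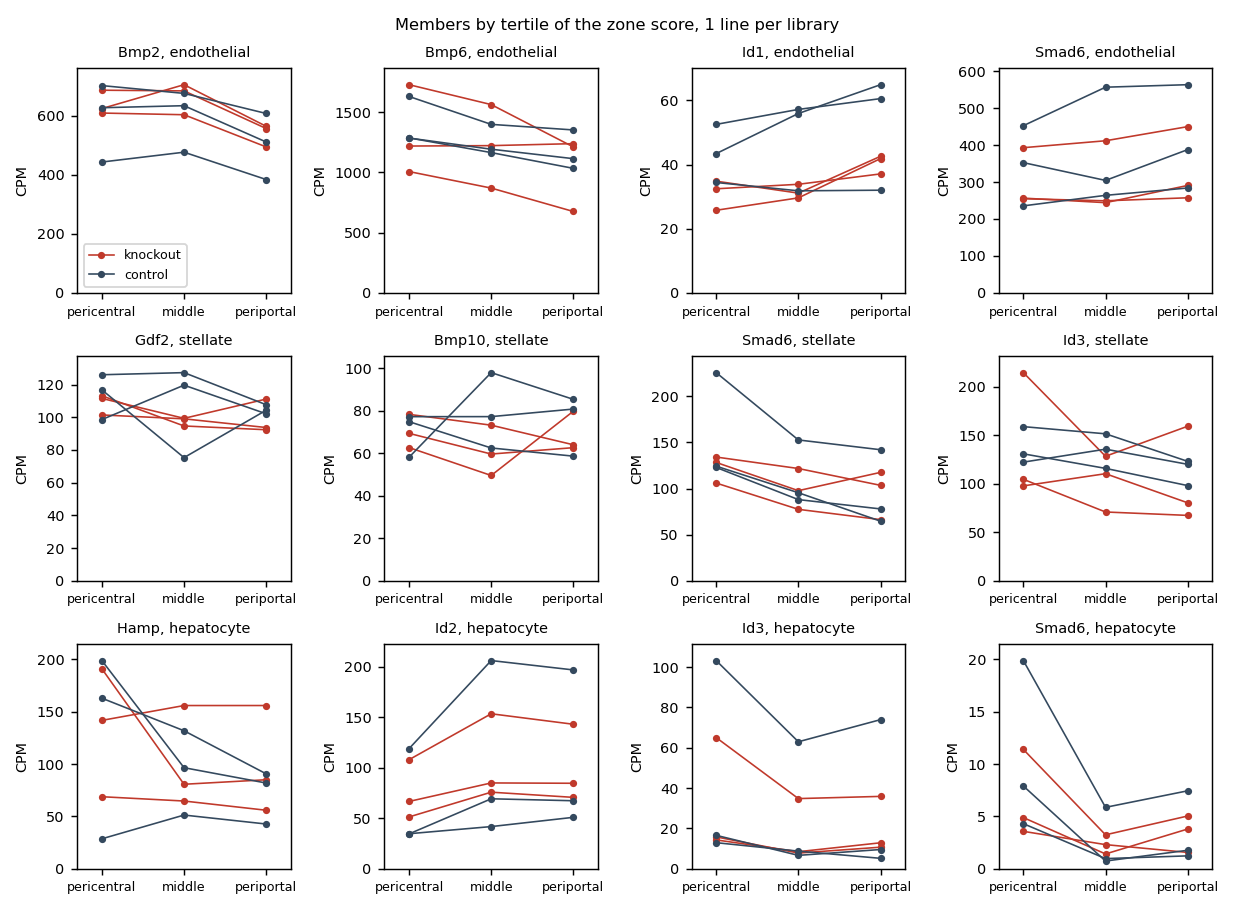
CPM of 12 gene and class pairs in the pericentral, middle and periportal tertiles of the zone score, with 1 line per mouse and knockouts and controls in separate colours. Endothelial Bmp2 and hepatocyte Smad6 and Id3 end lower in the periportal than in the pericentral tertile in all 6 mice, and hepatocyte Id2 ends higher.

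The wider pathway was described through 7 lists of 124 symbols, of which 3 were not among the features. Between knockout and control, 0 genes of any list passed by edgeR in hepatocyte, stellate or endothelial nuclei, and DESeq2 called 0. With no low-count filter 3 endothelial genes passed by edgeR, namely Hes1 (adjusted p = 0.0128), Lepr (0.0213) and Saa3, an acute-phase gene (0.0248), and they were named after their values were seen. The median log2 fold change over all genes was 0.00 in each of those classes. Among BMP receptors and co-receptors, 11, 10 and 10 genes were tested in hepatocyte, stellate and endothelial nuclei, 0, 0 and 1 had an unadjusted p under 0.05, and the median log2 fold changes were 0.02, 0.01 and -0.11. Bmpr1a, the gene of the type I receptor ALK3, averaged 205.6 ± 37.6 CPM in knockout and 202.1 ± 50.4 CPM in control hepatocytes (SD, n = 3 each). Acvr1, the gene of the type I receptor ALK2, averaged 138.8 ± 43.7 CPM in knockout and 132.2 ± 36.5 CPM in control hepatocytes (SD, n = 3 each). Eng, the gene of the endothelial co-receptor endoglin, averaged 947.6 ± 102.2 CPM in knockout and 1041 ± 74.9 CPM in control endothelial nuclei (SD, n = 3 each), with overlapping groups. Neo1, the gene of the hemojuvelin-binding receptor neogenin, averaged 33.0 ± 5.38 CPM in knockout and 22.6 ± 4.89 CPM in control endothelial nuclei without overlap, and did not pass (log2 fold change 0.49, SE 0.18, edgeR adjusted p = 0.9986).

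Among SMAD transducers and co-factors, 12, 11 and 11 genes were tested in these classes, 0, 0 and 0 had an unadjusted p under 0.05, and the median log2 fold changes were 0.13, -0.04 and -0.06. Among BMP antagonists and modulators, 10, 8 and 9 genes were tested in these classes, 0, 1 and 0 had an unadjusted p under 0.05, and the median log2 fold changes were 0.03, 0.00 and -0.14. Furin, a protease gene whose product processes BMP precursors, averaged 19.4 ± 2.94 CPM in knockout and 25.3 ± 1.12 CPM in control stellate nuclei (SD, n = 3 each), without overlap, and did not pass (log2 fold change -0.44, SE 0.18, edgeR adjusted p = 0.9995). Among the other BMP and activin ligands, 8, 7 and 5 genes were tested in these classes, 0, 2 and 1 had an unadjusted p under 0.05, and the median log2 fold changes were -0.17, -0.07 and -0.14. Tgfb2, a TGF-beta ligand gene, averaged 28.9 ± 2.71 CPM in knockout and 17.2 ± 2.63 CPM in control stellate nuclei (SD, n = 3 each). The groups did not overlap, and the difference did not pass (log2 fold change 0.69, SE 0.19, edgeR adjusted p = 0.814). Bmp5, another BMP ligand gene, averaged 2212 ± 270.8 CPM in knockout and 2113 ± 152.6 CPM in control stellate nuclei (SD, n = 3 each), with overlapping groups.

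Among other BMP-SMAD target genes, 8, 10 and 12 genes were tested in these classes, 0, 2 and 2 had an unadjusted p under 0.05, and the median log2 fold changes were 0.08, 0.02 and -0.15. Hes1, a transcription factor gene also driven by Notch, averaged 43.7 ± 1.99 CPM in knockout and 63.7 ± 5.90 CPM in control endothelial nuclei (SD, n = 3 each). The groups did not overlap, and the difference did not pass (log2 fold change -0.59, SE 0.11, edgeR adjusted p = 0.387). Among iron-handling genes, 21, 16 and 20 genes were tested in these classes, 0, 0 and 1 had an unadjusted p under 0.05, and the median log2 fold changes were 0.07, 0.03 and 0.04. Trf, the gene of transferrin, averaged 1648 ± 389.1 CPM in knockout and 1408 ± 1183 CPM in control hepatocytes (SD, n = 3 each), with overlapping groups. Among the inputs to hepcidin through STAT3, 13, 10 and 13 genes were tested in these classes, 0, 0 and 2 had an unadjusted p under 0.05, and the median log2 fold changes were -0.06, -0.14 and -0.17. Lepr, the leptin receptor gene, averaged 143.1 ± 31.2 CPM in knockout and 98.2 ± 1.22 CPM in control endothelial nuclei (SD, n = 3 each), without overlap, and did not pass (log2 fold change 0.49, SE 0.14, edgeR adjusted p = 0.9986). Saa2, the gene of an acute-phase protein, averaged 75.8 ± 30.6 CPM in knockout and 149.8 ± 88.6 CPM in control hepatocytes (SD, n = 3 each), with overlapping groups.

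By zone the same lists held calls, to be read against the shares of all genes given above. In hepatocytes the iron-handling genes had 3 higher and 11 lower of 21 tested, with a median log2 fold change of -0.20 beside 0.00 over all genes. The 10 hepatocyte markers were lower too, in 6 of 6 mice, with 9 of 10 past the threshold as lower and a median log2 fold change of -0.34, and their part in the iron-handling counts was not tested. That marker list holds the pericentral landmark Cyp2e1. Slc39a14, a transporter gene for iron not bound to transferrin, averaged 423.0 ± 87.5 CPM in pericentral and 584.5 ± 108.7 CPM in periportal hepatocytes (SD, n = 6; log2 fold change -0.51, SE 0.06). Trf (-0.36, SE 0.06), Hpx, the gene of the haem carrier hemopexin (-0.53, SE 0.10), Tfr2, a gene of a transferrin sensor (-0.19, SE 0.05), and Slc40a1, the ferroportin gene (-0.46, SE 0.10), also passed as lower. Slc11a2, the gene of the iron importer DMT1, passed as higher (0.61, SE 0.11). Hjv, the hemojuvelin gene, averaged 46.1 ± 12.3 CPM in pericentral and 63.0 ± 7.43 CPM in periportal hepatocytes (SD, n = 6), lower in 6 of 6 mice (log2 fold change -0.51, SE 0.09). Of the receptor list in hepatocytes, 1 higher and 1 lower of 10 tested passed, and Bmpr1a did not (log2 fold change -0.03, SE 0.06).

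In endothelial nuclei the receptor list had 1 higher and 2 lower of 9 tested. Bmpr2, the gene of a type II receptor, averaged 683.4 ± 66.1 CPM in pericentral and 1053 ± 150.7 CPM in periportal nuclei (SD, n = 6; log2 fold change -0.61, SE 0.04). Eng passed as higher (0.23, SE 0.04), and Bmper, a gene of a secreted BMP-binding protein, as lower (-1.75, SE 0.08). The other BMP-SMAD targets had 5 higher and 2 lower of 10 tested, with Hes1 (-1.09, SE 0.11) among the lower and Id4 (0.40, SE 0.11) among the higher. In stellate nuclei the receptor list had 3 higher and 0 lower of 8 tested. Its calls were Acvr2a (0.44, SE 0.06), Tgfbr3 (0.40, SE 0.06) and Eng (0.46, SE 0.07), genes of a type II receptor and of co-receptors. Bmper (-2.24, SE 0.20) and Tgfb2 (-2.04, SE 0.25) passed as lower there, and Bambi, a pseudoreceptor gene, as higher (0.79, SE 0.18).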

How the data were processed

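Nuclei from 6 mouse livers were sequenced as 10x Genomics 3' v3.1 libraries, per the labels' protocols. The authors deposited filtered tables of UMI counts per gene and barcode, made with Cell Ranger (7.0.1 per the submitters' processing notes, 7.1.0 per the file headers) on mm10. The sources used here do not say whether introns were counted or strand was used. Of 27297 deposited barcodes, those with at least 500 genes, at least 1000 UMIs and at most 5% mitochondrial UMIs were kept (26467), and 805 doublets called by Scrublet (expected rate 0.06; 2.22% to 3.77% per library) were removed. Nuclei were clustered with scanpy 1.11.5 and leidenalg 0.10.2 (30 components, 15 neighbours, resolution 1), and clusters were named from marker genes. The deposited counts were summed per library and class and tested with edgeR 4.0.16 (quasi-likelihood test, TMM, filterByExpr, robust; limma 3.58.1, R 4.3.3), with DESeq2 1.42.0 as an alternative, and Benjamini-Hochberg adjustment over all genes of a class. Exact permutation tests enumerated all sign flips over the 6 mice, and scipy 1.17.1 gave the intervals of shares. Each mouse is 1 library, and intervals of shares cover counting error only.

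Zone tertiles were taken within each library from landmark genes and tested with mouse as a block. On counts simulated with the same spread for every gene and a 4-fold change in 100 genes, the stellate comparison recovered 89% of them, and with a 2-fold change 7%. Alternatives were other normalizations, no low-count filter, DESeq2, thinning, doublets kept, another cluster resolution, a zone score split into 2 equal parts, and leaving out libraries. Adding the unnamed mesenchymal cluster to the stellate class was chosen after seeing the data. The text names every member, the genes of each pathway list past the threshold or, where none was, the 2 with the smallest unadjusted p and the 3 with the highest level, and the 3 genes most like a ligand or Hamp, giving a selection of these. Members and lists were chosen with earlier results of these data known. Symbols of 32158 of 32285 features were matched to GENCODE M21.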

Additional observations from a re-analysis of the deposited data

How the results depend on the processing

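Of 660 alternative values for 48 member results between knockout and control, 593 kept direction and call, 3 passed the threshold (Id1 in cholangiocytes) and 64 changed sign, all in results that had not passed. The cause of these changes was not tested. Without control 1 and knockout 2, the log2 fold change was -0.0303 for endothelial Bmp2, -0.41 for macrophage Id1, -0.0203 for stellate Id2, 0.16 for hepatocyte Id3, 0.18 for unnamed mesenchymal Id3, 0.0141 for hepatocyte Smad6, 3.58e-04 for stellate Smad6, 0.0823 for vascular endothelial Smad6, 0.0233 for unnamed mesenchymal Smad7, -0.0120 for hepatocyte Hamp. With nuclei thinned to 1500 UMIs, the log2 fold change was -0.26 for macrophage Id1, -0.14 for hepatocyte Id2, 0.13 for macrophage Id2, -0.0595 for vascular endothelial Id3, 0.0326 for macrophage Smad6, -0.0255 for hepatocyte Smad7, 0.34 for unnamed mesenchymal Smad7. With doublets kept, the log2 fold change was 0.41 for stellate Bmp6, -0.11 for stellate Id2, -0.0758 for vascular endothelial Id3. With the unnamed mesenchymal cluster added to the stellate class, the log2 fold change was 0.43 for stellate Bmp6, -0.25 for stellate Id2. At cluster resolution 0.5, the log2 fold change was -0.00212 for stellate Id2. Scaled by library size alone, the log2 fold change was 0.0179 for unnamed mesenchymal Id3. When 1 library at a time was left out, values whose sign changed ran from -0.14 to 0.0424 for stellate Bmp10 between zones, -0.10 to 0.23 for endothelial Bmp2, -0.48 to 0.41 for vascular endothelial Bmp2, -0.36 to 0.0439 for endothelial Bmp6, -0.60 to 0.24 for vascular endothelial Bmp6, -0.26 to 0.46 for hepatocyte Hamp, -0.67 to 0.41 for macrophage Id1, -0.0536 to 0.0934 for endothelial Id2 between zones, -0.32 to 0.75 for hepatocyte Id2, -0.19 to 0.0147 for macrophage Id2, -0.12 to 0.16 for stellate Id2. The others ran from -1.44 to 1.06 for hepatocyte Id3, -0.32 to 0.25 for unnamed mesenchymal Id3, -0.26 to 0.49 for vascular endothelial Id3, -0.87 to 0.46 for hepatocyte Smad6, -0.29 to 0.13 for macrophage Smad6, -0.13 to 0.63 for unnamed mesenchymal Smad6, -0.39 to 0.0816 for stellate Smad6, -0.45 to 0.0569 for vascular endothelial Smad6, -0.58 to 0.0336 for B-cell Smad7, -0.40 to 1.04 for hepatocyte Smad7, -0.14 to 0.0625 for macrophage Smad7, -0.54 to 0.15 for unnamed mesenchymal Smad7. The number of cholangiocyte members called was 1 with no low-count filter and 0 to 1 when 1 library was left out, against 0. The number of stellate members called between zones was 1 with the mesenchymal cluster added and 1 to 2 when 1 library was left out, against 2. The difference in detection of Bmp10 by Gdf2 was -0.12 points thinned to 1000 UMIs and 5.03 points (exact permutation p = 0.031) with no thinning, and that of Bmp6 by Bmp2 was -0.21 points thinned to 1000 UMIs and 8.74 points with no thinning.

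Over all genes, DESeq2 called 13 in hepatocytes against 0 by edgeR, 12 in stellate nuclei against 6 by edgeR, 18 in endothelial nuclei against 0 by edgeR, 1 in vascular endothelial nuclei against 0 by edgeR, 7 in macrophages against 0 by edgeR, and the counts were equal in the other 4 classes. No paired analysis was possible because the replicate numbers follow accession order and pair no mice across the groups. With 3 mice a group the endothelial comparison recovered 13% of 2-fold changes simulated with the same spread for every gene. That spread was not taken from the data, so the share does not carry over to a member with a smaller or larger spread. Cholangiocyte sums rest on 55 to 135 nuclei per library and leave out the 283 nuclei led by Dmbt1.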
